A study of Mus musculus with 15 samples.

Results

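Oboxa1, named Obox6 in the gene table and in the earlier nomenclature, was compared with the empty vector in primary mouse embryonic fibroblasts, the connective tissue cells that grow out of dissociated embryos. The comparison holds 6 of the 15 RNA-seq libraries of the study, chosen by their labels: Oboxa1 replicates 1 to 3 and control replicates 1 to 3. All 6 are from C57Bl/6 cells at passage 2, electroporated with a plasmid and sorted 48 h later for GFP-positive cells. The Oboxa1 plasmid carried the coding sequence with a V5 tag behind a constitutive CMV promoter and the control plasmid carried no inserted gene, while the GFP reporter, the electroporation and the sort were common to both groups. The cells were bought as a primary stock, and Oboxa1 was driven in a cell type whose control libraries held no reads of it. No source says whether the 3 libraries of a group came from separate cultures, so each p-value measures only a spread between libraries. That spread was estimated from all 15 libraries fitted together, including those outside this comparison, and not from the 6 alone. In such bulk samples fewer cells of a type and less RNA per cell cannot be told apart.

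Homeobox genes encode transcription factors that bind DNA through a homeodomain. The Obox genes are a rodent cluster that descends from duplicates of the photoreceptor gene Crx, and their transcripts are known from the oocyte and the embryo before implantation rather than from fibroblasts. Fibroblasts make most of the extracellular matrix of connective tissue, and they change their output of matrix, contractile proteins and growth factor signals with their state of growth and activation. The comparison addresses which fibroblast genes change when Oboxa1 is present.

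Reads assigned to Obox6 numbered 5956, 4057 and 2009 in Oboxa1 replicates 1 to 3 and 0 in each control library, so the libraries carried the gene that their labels name. As RPKM, the level scaled for gene length and library total, these were 122, 103 and 46.9, and replicate 3 had the lowest level of the transgene. The total count per library was 29541541 to 36435455 in the Oboxa1 group and 31239855 to 33849761 in the control. Levels are given as CPM, counts scaled to library total after TMM scaling, always in the order of replicates 1 to 3, and differences are log2 fold changes with the standard error of the fit.

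The 6 libraries had 2 overall profiles that did not follow the plasmid. Oboxa1 replicates 1 and 2 and control replicates 2 and 3, called the 4-library stratum here, lay at -14.7 to -11.3 on principal component 1 of the 1000 most variable genes, which held 56.5% of the variance. Oboxa1 replicate 3 lay at 32.9 and control replicate 1 at 20.6, and these form the 2-library stratum. Component 2 held 14.5% and followed the plasmid, with 16.9 to 24.2 in the controls and -10.9 to -2.74 in the Oboxa1 libraries. The labels name no such strata. The study's methods state that experiments were matched by date, without giving the dates, so whether a stratum is a date was not tested. Because the single Oboxa1 library of the 2-library stratum is also the one with the least Obox6, stratum and transgene level cannot be told apart.

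**Figure D1:**
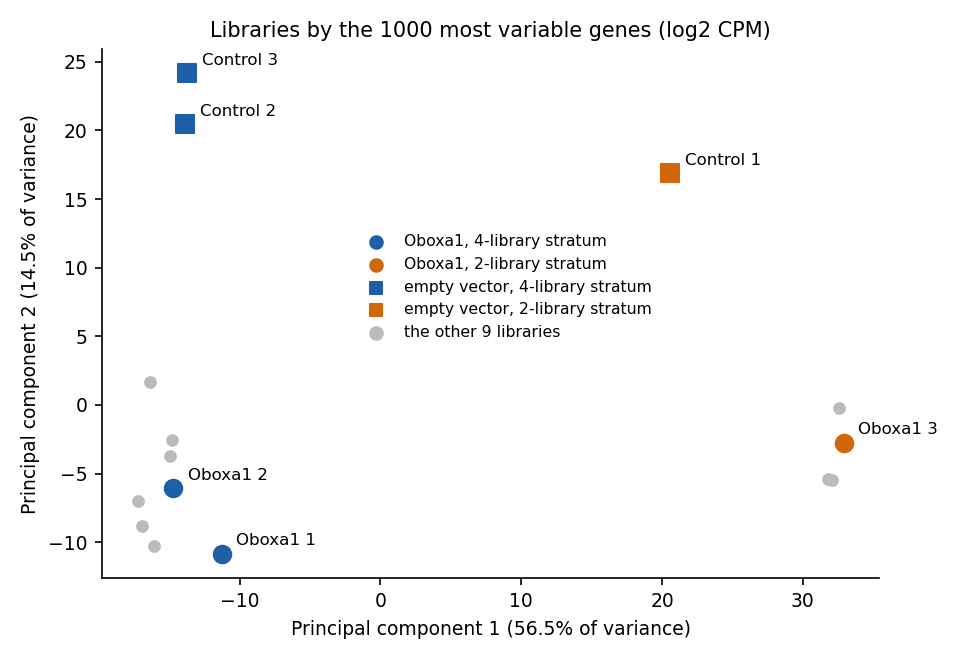
Each point is 1 of the 15 libraries by its scores on principal components 1 and 2 of log2 CPM; circles are Oboxa1, squares the empty vector, blue the 4-library stratum, orange the 2-library stratum and grey the other 9 libraries. Oboxa1 replicate 3 and control replicate 1 stand apart from the other 4 compared libraries along component 1, at 32.9 and 20.6, while component 2 separates all 3 Oboxa1 libraries from all 3 controls.

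Over all 6 libraries, 593 of 14005 genes were higher (4.23%) and 460 lower (3.28%) after Oboxa1, with an adjusted p under 0.05 and an absolute log2 fold change above 0.32. Of these 1053 genes, 1039 had the same sign in both strata and 957 had 3 Oboxa1 values beyond all 3 controls, an arrangement that 24.6% of all tested genes showed. Only 209 changed by more than 2-fold, 148 of them upwards. When each Oboxa1 library was compared only with controls of its own stratum, the average effect was called for 1246 genes upwards (8.9%) and 804 downwards (5.74%), including 591 of the 593 and 457 of the 460. A fit to the 6 libraries without the other 9 called 47 higher and 18 lower over all 6, and all of these were among the 1053. Leaving out 1 library moved the count over all 6 by more than 1.5 times for 4 of the 6: it was 283 higher and 187 lower when Oboxa1 replicate 1 was dropped, 960 higher when Oboxa1 replicate 3 was, 1094 and 694 when control replicate 1 was, and 284 and 211 when control replicate 3 was.

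Taken separately, the 4-library stratum had 1424 genes higher (10.2%) and 988 lower (7.05%), and the 2-library stratum, with 1 library on each side and its spread borrowed from the other groups of the fit, had 633 higher (4.52%) and 507 lower (3.62%). They shared 304 of the raised genes, 21.3% of those of the 4-library stratum and 48.03% of those of the 2-library stratum, and 173 of the lowered genes, 17.5% and 34.1%. For 606 genes the effect itself differed between the strata, 258 with the larger value in the 4-library stratum (1.84%) and 348 with the smaller (2.48%), while a fit to the 6 libraries alone gave 726 and 897. In 457 of these the sign was opposite, and 28 genes were called in opposite directions.

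**Figure D2:**
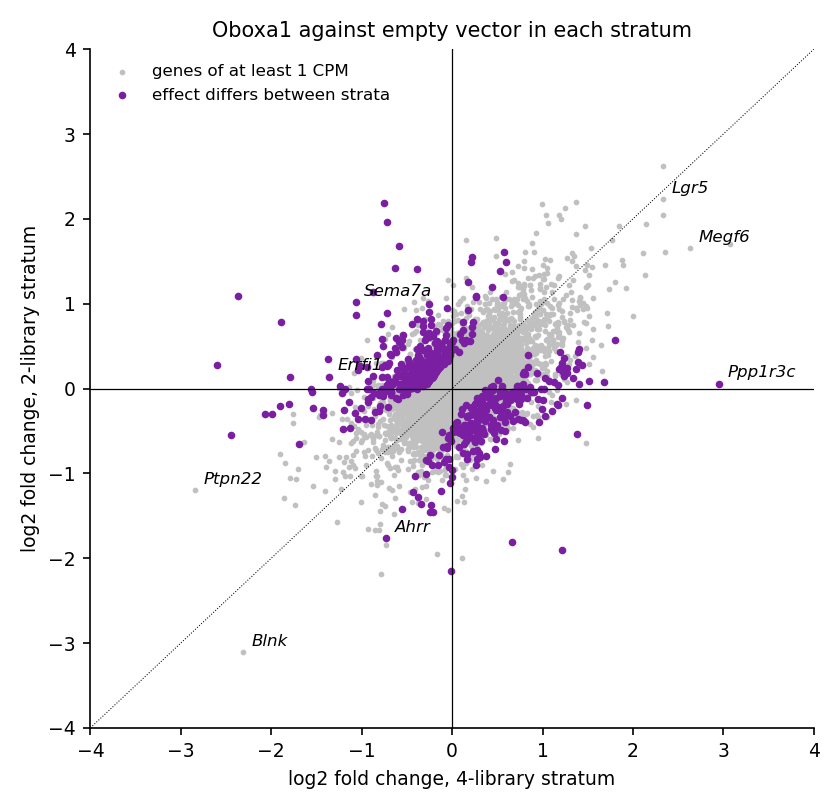
Each point is 1 of the 12369 genes with a mean of at least 1 CPM, placed by its log2 fold change in the 4-library stratum (x axis) and in the 2-library stratum (y axis); purple marks the 600 of them whose effect differs between the strata, and the dotted line is equality. Megf6, Lgr5 and Blnk, from the genes chosen for 1 sign in both strata, lie on the same side of 0 in both, as does Ptpn22. Errfi1 and Sema7a lie below 0 in the 4-library stratum and above 0 in the other.

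The 15 genes named in each direction were taken only from called genes with 1 sign in both strata and no overlap between the groups. Their non-overlap and shared sign were thus fixed by that choice. Among the 15 genes raised most over all 6 libraries, Gdpd2, a membrane-bound glycerophosphodiesterase (chromosome X, 100729836 to 100738901, GRCm38), was at 3.56, 3.11 and 0.733 CPM with Oboxa1 and 0.116, 0.706 and 0.61 CPM with the empty vector. The 3 Oboxa1 values lay above the controls, but narrowly so for replicate 3, and the log2 fold change was 2.38 ± 0.53 (adjusted p = 0.0129). Egfl6, a secreted matrix protein with EGF repeats, was at 6.8, 4.6 and 9.41 CPM with Oboxa1 and 2.48, 1.59 and 1.61 CPM with the empty vector. Its change was near equal in the 4-library (1.85 ± 0.22) and the 2-library stratum (1.92 ± 0.27). Adamts20, a secreted metalloprotease, was at 1.92, 2.2 and 1.56 CPM with Oboxa1 and 0.404, 0.471 and 0.449 CPM with the empty vector, and rose by 2.09 ± 0.22 (adjusted p = 0.000267). Frem1, a basement membrane protein of the epidermis, was at 3.43, 2.13 and 5.68 CPM with Oboxa1 and 1.5, 1.18 and 0.835 CPM with the empty vector, with the highest value in replicate 3.

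Tbxa2r, the thromboxane receptor of platelets and smooth muscle, was at 10.4, 7.34 and 10.8 CPM with Oboxa1 and 3.78, 2.15 and 2.7 CPM with the empty vector. The log2 fold change was 1.72 ± 0.26 (adjusted p = 0.00165). Pgr, the progesterone receptor, was at 1.18, 0.879 and 3.86 CPM with Oboxa1 and 0.838, 0.324 and 0.482 CPM with the empty vector. Its lowest Oboxa1 value was close to the highest control, and its difference was 1.37 ± 0.38 in the 4-library and 2.20 ± 0.38 in the 2-library stratum. Aoc3, a cell-surface amine oxidase, was at 5.67, 5.14 and 2.71 CPM with Oboxa1 and 1.5, 1.12 and 1.61 CPM with the empty vector, a change of 2.00 ± 0.21 in the 4-library stratum and of 0.85 ± 0.33 in the other, where it did not pass (adjusted p = 0.115). Ppp1r3c, which targets a protein phosphatase to glycogen, was at 2.74, 2.03 and 1.05 CPM with Oboxa1 and 1.01, 0.382 and 0.225 CPM with the empty vector. All of its difference lay in the 4-library stratum, 2.96 ± 0.39 against 0.058 ± 0.50 in the other, and the 2 effects differed (adjusted p = 0.0181). The remaining genes of the 15 raised most were Gucy1a3, Megf6, Lgr5, Col8a2, Myh11, Eln and Aspn, with log2 fold changes of 1.62 to 2.90.

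A homeodomain of the Crx and Otx type reads the core TAATCC, so the sequence around the start site was looked up for the 30 genes with the largest changes in both directions. RefSeq windows (GRCm38.p6, 250 bases before to 50 after a start) were found for 25 of the 30, and 2 of them, Frem1 among the raised and Esm1 among the lowered genes, held TAATCC or its reverse complement GGATTA. That is 8.0% of these genes, beside 6.86% of the tested genes with a window and 8.14% of all 27025 genes in RefSeq's promoter set. By window the share was 5.64% for tested genes and 7.06% of all 32851. Shown are the windows of the first raised and the first lowered gene, which lack these letters, and the 2 chosen because they hold them, with the core in capitals. Over all 6 libraries, 440 of 591 raised and 362 of 460 lowered genes had a window, as did 11017 of 13868 tested genes. Of those with a window, 7.27% of the raised and 3.87% of the lowered genes held the core. Genes without a window could not be looked up, and these shares were not tested against each other.
Gucy1a3 (Gucy1a1 in RefSeq, chromosome 3, 82145601 to 82145900, minus strand): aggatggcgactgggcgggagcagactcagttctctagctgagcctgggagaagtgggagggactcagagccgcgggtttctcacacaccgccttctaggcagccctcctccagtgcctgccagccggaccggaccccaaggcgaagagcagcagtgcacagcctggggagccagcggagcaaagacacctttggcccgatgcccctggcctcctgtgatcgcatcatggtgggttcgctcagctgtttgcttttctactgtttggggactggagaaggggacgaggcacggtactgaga
Frem1 (chromosome 4, 83021053 to 83021352, minus strand): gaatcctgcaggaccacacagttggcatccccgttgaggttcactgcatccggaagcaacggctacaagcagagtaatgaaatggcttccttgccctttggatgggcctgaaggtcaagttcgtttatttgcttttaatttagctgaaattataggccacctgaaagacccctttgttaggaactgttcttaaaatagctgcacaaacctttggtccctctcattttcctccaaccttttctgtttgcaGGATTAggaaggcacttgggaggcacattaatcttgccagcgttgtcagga
Blnk (chromosome 19, 40994172 to 40994471, minus strand): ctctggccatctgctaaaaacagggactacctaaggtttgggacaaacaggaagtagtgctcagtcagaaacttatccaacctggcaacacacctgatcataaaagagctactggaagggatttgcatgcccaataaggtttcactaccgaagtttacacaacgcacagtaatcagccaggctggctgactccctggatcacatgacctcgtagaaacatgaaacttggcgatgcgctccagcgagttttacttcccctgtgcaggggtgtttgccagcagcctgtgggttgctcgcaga
Esm1 (chromosome 13, 113209409 to 113209708, plus strand): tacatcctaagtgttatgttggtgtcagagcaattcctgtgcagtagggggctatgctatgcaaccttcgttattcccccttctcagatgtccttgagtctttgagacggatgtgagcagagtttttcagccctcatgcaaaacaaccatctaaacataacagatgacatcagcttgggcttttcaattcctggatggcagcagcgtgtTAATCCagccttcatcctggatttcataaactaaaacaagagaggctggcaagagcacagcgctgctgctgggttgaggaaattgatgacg
Frem1 had 2 windows and 1 of them held the core, which starts 1 base before the annotated start of that window. In Esm1, with 1 window, the core starts 41 bases before the annotated start. Such a match is a description of the letters, not of binding.

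Most of the collagens measured rose in each stratum. Of 21 collagens of fibrils and their surroundings, 10 were higher and 1 lower over all 6 libraries, with a median log2 fold change of 0.58 beside 0.0026 over all genes tested. The 4-library stratum gave 16 higher and 1 lower and the 2-library stratum 15 and 0 (0 by an unadjusted p under 0.05 and 0 in DESeq2). Col3a1, a fibril-forming collagen of elastic tissues (chromosome 1, 45311538 to 45349706), was at 3365, 2849 and 2950.4 CPM with Oboxa1 and 1207, 1632 and 1468 CPM with the empty vector. The groups were far apart, and the change was 1.09 ± 0.14 (adjusted p = 0.00057). Col1a1, the main chain of type I collagen and the most abundant of the list by CPM, was at 11205, 10418 and 10962 CPM with Oboxa1 and 6619, 6685 and 6535 CPM with the empty vector, a change of 0.71 ± 0.11 in the 4-library stratum and 0.73 ± 0.16 in the other. Col27a1 (chromosome 4), a fibrillar collagen of cartilage, rose by 0.91 ± 0.11 and Col5a2, which regulates fibril width, by 0.60 ± 0.082. Col18a1, a basement membrane collagen, was the exception, with a log2 fold change of -0.50 ± 0.15.

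Of 12 small leucine-rich proteoglycans, 7 were higher and 0 lower over all 6 libraries (0 lower by an unadjusted p under 0.05 and 0 in DESeq2), and the median was 0.95. Prelp, an anchor between basement membrane and collagen, was at 39.0, 36.4 and 30.5 CPM with Oboxa1 and 18.5, 17.1 and 14.3 CPM with the empty vector, and Fmod, fibromodulin, which binds collagen fibrils, at 87.5, 72.7 and 87.1 CPM with Oboxa1 and 43.9, 31.2 and 28.7 CPM with the empty vector. In both the groups did not overlap, and the changes were 1.09 ± 0.12 for Prelp and, in the 2 strata, 1.42 ± 0.16 and 0.99 ± 0.21 for Fmod. Ogn, osteoglycin, was at 467, 461 and 145 CPM with Oboxa1 and 121, 216 and 179.9 CPM with the empty vector. Its level split by stratum in the Oboxa1 group, with an effect of 1.23 ± 0.096 in the 4-library stratum, 0.26 ± 0.14 in the other and a tested difference between them (adjusted p = 0.00299). Of 24 enzymes that process collagen 7 were higher and 1 lower over all 6, with 9 and 1 in the 4-library and 4 and 0 in the 2-library stratum (0 lower there by an unadjusted p under 0.05 and 0 in DESeq2), among them the propeptidases Adamts3 (1.33 ± 0.22) and Adamts2 (0.76 ± 0.17) and the proline hydroxylases P3h1 (0.39 ± 0.075) and P4ha2 (0.41 ± 0.08).

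Of 17 elastic fibre genes 6 were higher and 0 lower over all 6 (2 lower by an unadjusted p under 0.05 and 0 in DESeq2), with 7 higher and 1 lower in the 4-library and 4 and 2 in the 2-library stratum. Fbln5, which assembles elastin on microfibrils, was at 719.6, 641 and 609.5 CPM with Oboxa1 and 419, 393 and 381 CPM with the empty vector, and rose by 0.72 ± 0.086 (adjusted p = 0.000418). Mfap4, a microfibril-associated protein, was at 85.8, 67.1 and 108 CPM with Oboxa1 and 37.9, 35.9 and 36.3 CPM with the empty vector, and its change was 1.08 ± 0.16 in the 4-library and 1.52 ± 0.22 in the 2-library stratum. Of 26 basement membrane genes 7 rose and 1 fell; Lama4, a laminin chain of vessels, rose by 0.76 ± 0.12. Of 21 matricellular genes 5 rose over all 6, among them Thbs1 and Sparc, while within strata 12 rose and 4 fell. Thbs1, thrombospondin, was at 12422, 12167 and 14345 CPM with Oboxa1 and 9804, 9036 and 9501 CPM with the empty vector, a small but separated change of 0.46 ± 0.071 (adjusted p = 0.00197).

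Of 33 metalloproteases and inhibitors 14 were higher and 2 lower. Reck, a membrane-anchored inhibitor of matrix metalloproteases, was at 53.1, 50.3 and 45.4 CPM with Oboxa1 and 31.0, 33.0 and 32.4 CPM with the empty vector and rose by 0.63 ± 0.071 (adjusted p = 0.000395). The aggrecanases Adamts4 and Adamts9 rose by 0.98 ± 0.11 and 0.82 ± 0.11. Among the 2 that fell was Mmp3, stromelysin, which was at 47.5, 51.7 and 103 CPM with Oboxa1 and 93.2, 168 and 176 CPM with the empty vector, with an effect of -1.80 ± 0.12 in the 4-library stratum and 0.14 ± 0.16 in the other, and these differed (adjusted p = 3.76e-05). The 13 fibroblast markers, all detected, summed to 29347 to 31144 CPM in the Oboxa1 libraries and to 20690 to 22694 in the controls, and 5 of the 13 were called higher and 0 lower. Col1a1, Col1a2 and Col3a1 belong to this list as well as to the collagens, and Lum and the growth factor receptor Pdgfrb (0.70 ± 0.20) were the other 2 called. Of the other 8 markers, Thy1, Dcn and Fap were called higher within strata, and Pdgfra, Vim, S100a4, Twist1 and Prrx1 in neither comparison. In the 4-library stratum alone 8 of the 13 were higher and Pdgfra was lower (-0.48 ± 0.079), with 0.35 ± 0.11 in the other. S100a4 and Twist1 had values of -0.46 ± 0.13 and -0.40 ± 0.092 in the 2-library stratum, where the median of the 13 was 0.70. The part of these markers in the matrix results was not tested.

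**Figure D3:**
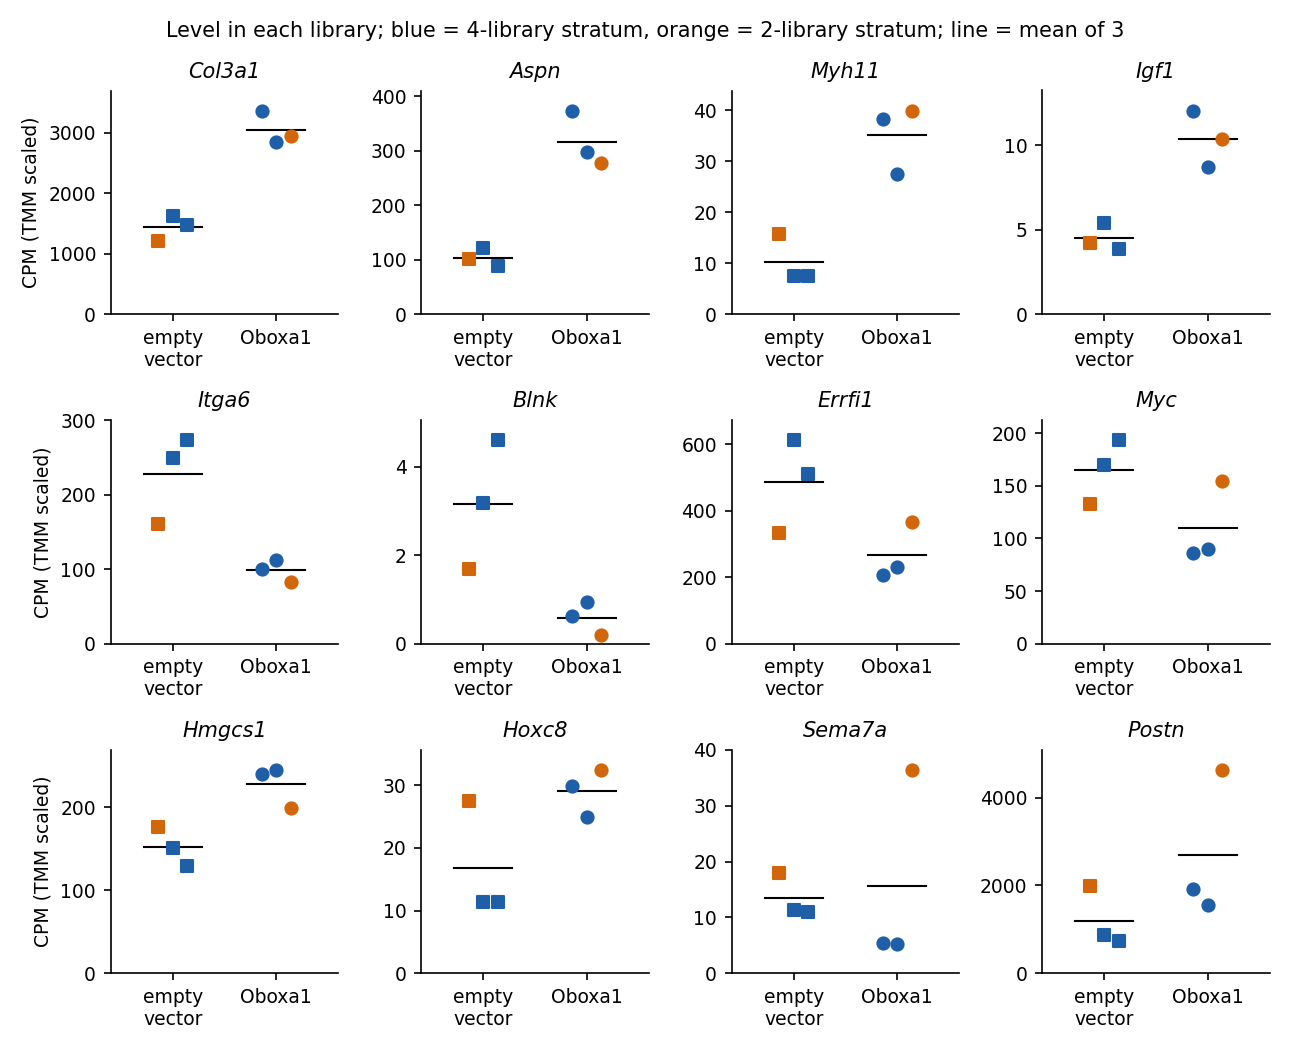
Each panel shows 1 gene in the 6 libraries as CPM (y axis from 0), with squares for the empty vector, circles for Oboxa1, blue for the 4-library stratum, orange for the 2-library stratum and a line at the mean of 3. Col3a1, Aspn, Myh11 and Igf1 are higher and Itga6 and Blnk lower in every Oboxa1 library, while for Errfi1, Myc, Hoxc8 and Sema7a the pairs of the 2 colours differ in direction or size, and for Postn both colours rise from different levels.

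Contractile genes of smooth muscle rose as well, 9 of 22 over all 6 libraries and 0 fell (0 lower by an unadjusted p under 0.05 and 0 in DESeq2). Myh11, the smooth muscle myosin heavy chain (chromosome 16, 14194527 to 14292188), was at 38.2, 27.5 and 39.9 CPM with Oboxa1 and 15.8, 7.56 and 7.42 CPM with the empty vector. Its 3 Oboxa1 values lay above every control by the choice of genes, and control replicate 1 was above control replicates 2 and 3. Mylk, the kinase that activates this myosin, was at 18.4, 15.2 and 21.1 CPM with Oboxa1 and 7.77, 7.06 and 5.97 CPM with the empty vector, a change of 1.39 ± 0.14 (adjusted p = 0.000233) that was near equal in both strata. Acta2, smooth muscle actin, was at 4471, 4344 and 3447 CPM with Oboxa1 and 2779, 2469.6 and 2439 CPM with the empty vector, and rose by 0.84 ± 0.10 in the 4-library stratum, while its value of 0.31 ± 0.14 in the other did not pass (adjusted p = 0.189). The 7 pericyte markers summed to 482 to 553 CPM with Oboxa1 and 426 to 456 CPM without, with 2 of 7 called higher (Des and Notch3), and their part in this result was not tested. The 11 skeletal myoblast markers measured summed to 6.22 to 17.0 CPM with Oboxa1 and 5.49 to 7.002 CPM without, with Myod1 and Pax7 at 0 in all 6 libraries. Of the 5 tested, the troponin Tnnt3 was called higher over all 6 (1.12 ± 0.24), and within strata the myosin Myh1 was higher (2.24 ± 0.44) and the receptor subunit Chrna1 lower (-1.27 ± 0.27). Their part in this result was not tested.

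Of 15 tested genes of nitric oxide and cGMP signalling 4 were higher, 1 was lower and 10 were not called. Soluble guanylate cyclase is a dimer that makes cGMP, and both of its subunits rose. Gucy1a3, the alpha subunit, was at 3.76, 2.4 and 0.574 CPM with Oboxa1 and 0.173, 0.471 and 0.257 CPM with the empty vector, with an effect of 3.07 ± 0.33 in the 4-library stratum and a value of 1.71 ± 0.75 in the other (adjusted p = 0.17). Gucy1b3, the beta subunit (chromosome 3, 82032004 to 82074711, beside Gucy1a3), was at 4.72, 4.29 and 5.74 CPM with Oboxa1 and 2.54, 2.09 and 2.54 CPM with the empty vector, and rose by 0.97 ± 0.20 and 1.17 ± 0.27 in the 2 strata. Mrvi1, a substrate of the cGMP-dependent kinase in smooth muscle, rose by 0.92 ± 0.14 and the phosphodiesterase Pde1a by 0.90 ± 0.19.

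Secreted growth factors and their modulators formed a further group. Of 17 genes of the insulin-like growth factor system 4 rose and 0 fell over all 6 libraries (1 lower by an unadjusted p under 0.05 and 0 in DESeq2), while within strata 7 rose and 2 fell. Igf1, the ligand, was at 12.0, 8.72 and 10.4 CPM with Oboxa1 and 4.19, 5.41 and 3.85 CPM with the empty vector, a change of 1.21 ± 0.15 (adjusted p = 0.00063). Igfbp5, a binding protein held in the matrix, was at 562, 406 and 985 CPM with Oboxa1 and 348, 206 and 179.6 CPM with the empty vector. Control replicate 1 and Oboxa1 replicate 3 were each the highest of their group, and over all 6 the change was 1.41 ± 0.28. Pappa2, a protease that cuts such binding proteins, was at 2.17, 1.59 and 5.1 CPM with Oboxa1 and 1.13, 0.941 and 0.963 CPM with the empty vector and rose by 1.54 ± 0.34 (adjusted p = 0.0116).

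Of 44 Wnt and R-spondin genes 10 were higher and 1 lower. The R-spondin receptors Lgr4 and Lgr5 both rose: Lgr4 was at 115, 105 and 110.5 CPM with Oboxa1 and 73.0, 63.0 and 59.0 CPM with the empty vector, a change of 0.76 ± 0.09, and Lgr5 changed by 2.29 ± 0.29. The secreted Wnt antagonists Sfrp1 and Sfrp2 rose by 0.58 ± 0.064 and 0.75 ± 0.12. Of 36 genes of TGF-beta and BMP signalling 3 were higher and 2 lower over all 6, 9 and 4 within strata, and for 13 the effect differed between the strata. Over all genes tested the shares were 4.23% and 3.28% over all 6 and 8.9% and 5.74% within strata, and 606 of 14005 effects differed. Tgfb2, a TGF-beta ligand, was at 64.8, 54.5 and 48.8 CPM with Oboxa1 and 35.0, 33.0 and 31.1 CPM with the empty vector, and rose by 0.76 ± 0.10 (adjusted p = 0.000858), whereas Fst, the activin inhibitor follistatin, was at 239, 252 and 233 CPM with Oboxa1 and 281, 417 and 445 CPM with the empty vector and fell over all 6 (-0.66 ± 0.13), with an effect of -0.81 ± 0.079 in the 4-library and -0.27 ± 0.11 in the 2-library stratum that differed (adjusted p = 0.0327). Of 19 complement genes 10 rose and 1 fell, led by the inhibitor Serping1 (1.39 ± 0.21) and the component C4b (1.11 ± 0.17), and the ephrin receptors Epha3 and Epha4, which guide axons and mesenchymal cells, rose by 1.43 ± 0.22 and 0.99 ± 0.17.

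Among the 15 genes that fell most, Blnk, an adaptor of B cell receptor signalling (chromosome 19, 40928927 to 40994221), was at 0.631, 0.947 and 0.191 CPM with Oboxa1 and 1.68, 3.18 and 4.59 CPM with the empty vector. The change was -2.31 ± 0.32 in the 4-library and -3.11 ± 0.67 in the 2-library stratum. C3ar1, the receptor of a complement fragment, was at 0.521, 0.44 and 0.893 CPM with Oboxa1 and 2.31, 1.35 and 1.89 CPM with the empty vector, and Cd300lb, a myeloid receptor, at 0.631, 0.304 and 0.925 CPM with Oboxa1 and 1.79, 1.47 and 1.7 CPM with the empty vector, with log2 fold changes of -1.58 ± 0.30 and -1.40 ± 0.32. The 10 macrophage markers measured summed to 10.1 to 11.1 CPM with Oboxa1 and 9.83 to 12.3 CPM without, Lyz2 was called higher and Mrc1 lower, and Tyrobp and Emr1 were at 0 in all 6 libraries. Lyz2 was at 0.411, 0.169 and 0.319 CPM with Oboxa1 and 0.0866, 0.0588 and 0.0642 CPM with the empty vector. Mrc1 was at 0.274, 0.27 and 0.287 CPM with Oboxa1 and 0.78, 1.21 and 1.19 CPM with the empty vector. Both calls rest on few reads. Of the remaining genes among the 15 lowered most, Clic5, an intracellular chloride channel, was at 4.25, 2.94 and 2.42 CPM with Oboxa1 and 5.4, 11.0 and 10.1 CPM with the empty vector, and Esm1, the secreted proteoglycan endocan, at 7.16, 8.55 and 5.58 CPM with Oboxa1 and 9.76, 20.9 and 23.5 CPM with the empty vector. The changes were -1.46 ± 0.28 and -1.35 ± 0.29, and control replicate 1 was the lowest control in both.

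Integrins moved both ways, with 3 of 19 higher and 3 lower. Itga1, a collagen receptor chain, was at 17.3, 15.7 and 18.4 CPM with Oboxa1 and 9.59, 8.8 and 8.28 CPM with the empty vector, a change of 0.95 ± 0.11. Itga6, a laminin receptor chain, was at 100.4, 113 and 82.2 CPM with Oboxa1 and 161, 249 and 273 CPM with the empty vector, and fell in the 4-library (-1.29 ± 0.13) and the 2-library stratum (-0.97 ± 0.19). Itga2, another collagen receptor chain next to Itga1 on chromosome 13, was at 6.44, 7.0 and 12.9 CPM with Oboxa1 and 18.9, 36.6 and 36.4 CPM with the empty vector. Its effect of -2.44 ± 0.27 in the 4-library stratum and -0.55 ± 0.36 in the other differed (adjusted p = 0.0238). The same pattern of a larger fall in the 4-library stratum, with a tested difference, held for Upp1, uridine phosphorylase (-1.99 ± 0.22 and -0.30 ± 0.28), and for Rapgef4, an exchange factor switched by cAMP (-2.07 ± 0.27 and -0.30 ± 0.33).

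Genes of DNA replication were lower in both strata by small amounts. Of 43 such genes, 19 were lower and 0 higher over all 6 libraries (0 higher by an unadjusted p under 0.05 and 0 in DESeq2), 22 were lower in the 4-library and 19 in the 2-library stratum, and 0 had a positive fold change over all 6. The median was -0.32 over all 6, -0.32 in the 4-library and -0.34 in the 2-library stratum. Mcm7, a subunit of the replicative helicase, was at 77.4, 85.0 and 85.8 CPM with Oboxa1 and 108, 108 and 112 CPM with the empty vector, and Rrm2, a subunit of ribonucleotide reductase, at 227, 248 and 207 CPM with Oboxa1 and 299.5, 319.8 and 335 CPM with the empty vector. The groups did not overlap in either gene, and the changes were -0.40 ± 0.06 (adjusted p = 0.00162) and -0.49 ± 0.08 (adjusted p = 0.00262). The single-strand binding subunit Rpa1 and the flap nuclease Fen1 changed by -0.36 ± 0.055 and -0.39 ± 0.065. Without Oboxa1 replicate 1 the count over all 6 was 10, and in a fit to the 6 libraries alone it was 0 over all 6 but 21 within strata.

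Genes of mitosis went the same way with a less even split. Of 40, 16 were lower and 0 higher over all 6 (0 higher by an unadjusted p under 0.05 and 0 in DESeq2), 7 were lower in the 4-library stratum and 33 in the 2-library stratum, where the medians were -0.22 and -0.54. The effect itself differed for 2 of the 40, Plk1 and Birc5, beside 606 of 14005 over all genes tested. By an unadjusted p under 0.05 the effect was higher in the 4-library stratum for 17 and lower for 0, and in DESeq2 for 6 and 0. The median difference, 4-library less 2-library stratum, was 0.30 beside 0.012 over all genes tested. Plk1, a mitotic kinase, was at 74.1, 84.2 and 63.4 CPM with Oboxa1 and 102, 82.9 and 86.1 CPM with the empty vector, and Birc5, survivin, at 45.6, 50.8 and 33.4 CPM with Oboxa1 and 62.4, 55.2 and 57.2 CPM with the empty vector. For both the lowest value was Oboxa1 replicate 3 and the highest control replicate 1, and the effect of Plk1 was -0.096 ± 0.094 in the 4-library and -0.69 ± 0.13 in the 2-library stratum. Without Oboxa1 replicate 1 the count for mitosis was 4 over all 6 and 6 within strata, and without Oboxa1 replicate 2 it was 27 and 33. Over all 6 it was 6 when Oboxa1 replicate 3 was dropped, 10 when control replicate 2 was and 7 when control replicate 3 was, and in a fit to the 6 libraries alone it was 0 over all 6 and 17 within strata. Among regulators of G1, cyclin Ccnd1 was at 448, 478 and 415 CPM with Oboxa1 and 555, 691 and 675 CPM with the empty vector, a change of -0.52 ± 0.094, and the inhibitor Cdkn1c at 33.7, 28.8 and 21.7 CPM with Oboxa1 and 19.2, 17.0 and 15.6 CPM with the empty vector, a change of 0.70 ± 0.14.

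**Figure D4:**
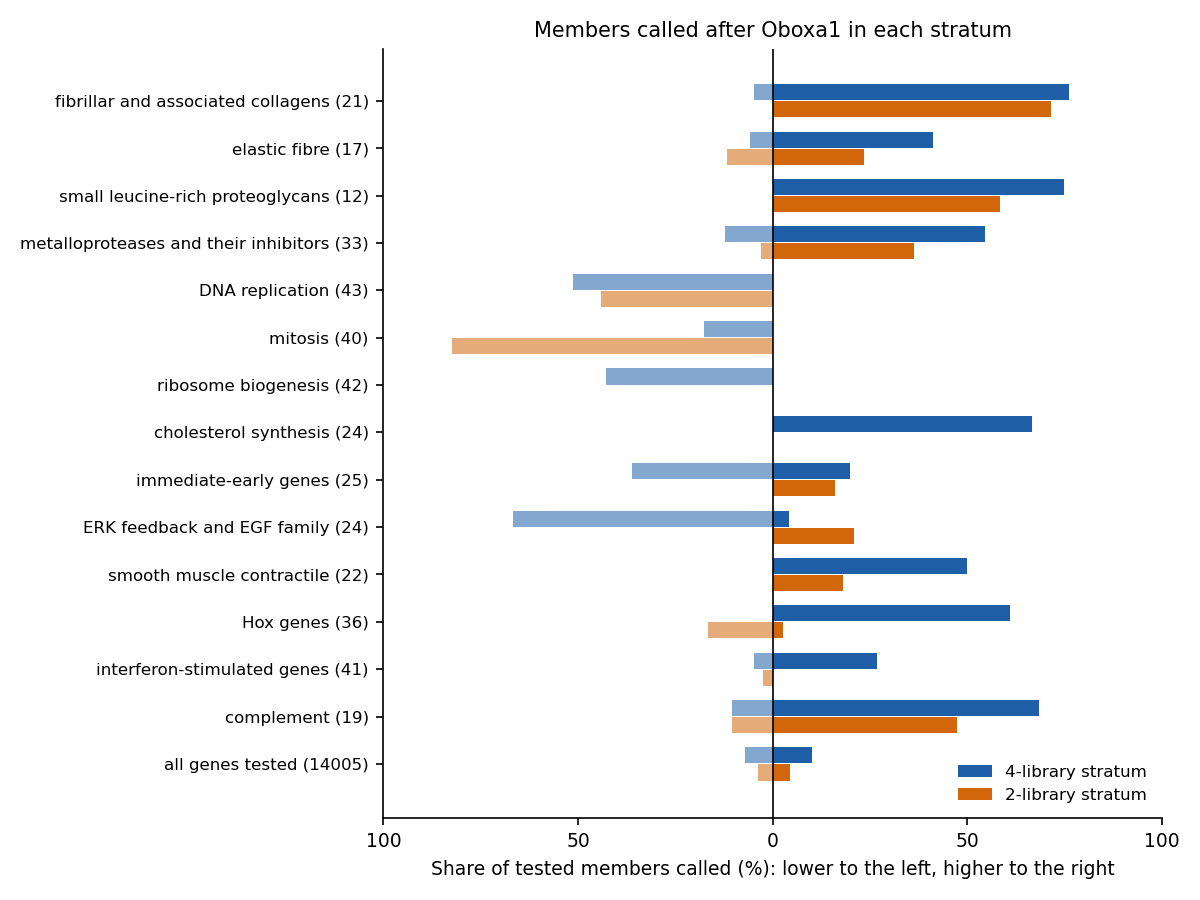
Bars give the share of the tested members of each gene list (number in brackets) called higher (right, full colour) and lower (left, pale) after Oboxa1, in the 4-library stratum (blue) and the 2-library stratum (orange), with all genes tested at the foot. Collagens and DNA replication reach similar shares in both strata, while cholesterol synthesis, ERK feedback genes, Hox genes and ribosome biogenesis have calls in the 4-library stratum that the 2-library stratum lacks or holds in the other direction.

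The feedback genes of ERK signalling and the ligands of the EGF family differed between the strata. Growth factor receptors act through the kinase ERK, which raises the transcription of its own inhibitors (Dusp, Spry and Spred genes) and of EGF ligands. Of 24 such genes, 16 fell and 1 rose in the 4-library stratum, 0 fell and 5 rose in the 2-library stratum (1 lower there by an unadjusted p under 0.05 and 0 in DESeq2), and for 15 the effect was lower in the 4-library stratum by the test of the difference. Errfi1, an inhibitor of the EGF receptor (chromosome 4, 150853796 to 150868889), was at 206, 232 and 367 CPM with Oboxa1 and 333, 613 and 511 CPM with the empty vector. In the 4-library stratum it fell by 1.36 on the log2 scale (SE 0.08), in the 2-library stratum its value was 0.14 ± 0.11, and the effects differed (adjusted p = 1.85e-05). Hbegf, an EGF receptor ligand, was at 113, 117 and 193 CPM with Oboxa1 and 162, 219 and 223 CPM with the empty vector. Only control replicates 2 and 3 stood above all Oboxa1 values, and the effect was -0.94 ± 0.065 and 0.25 ± 0.091. Spry2, a cytoplasmic inhibitor, was at 65.0, 68.0 and 99.2 CPM with Oboxa1 and 83.1, 109 and 118 CPM with the empty vector, and Dusp6, the ERK phosphatase, at 62.2, 64.2 and 118 CPM with Oboxa1 and 84.5, 84.1 and 77.8 CPM with the empty vector. Dusp6 was called in opposite directions, -0.36 ± 0.08 in the 4-library and 0.49 ± 0.11 in the 2-library stratum.

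Myc, a growth regulator downstream of this pathway, was at 86.2, 89.7 and 155 CPM with Oboxa1 and 133, 169.9 and 193 CPM with the empty vector. It fell in the 4-library stratum (-1.05 ± 0.086) and had a value of 0.22 ± 0.12 in the other, and the effects differed (adjusted p = 0.000135). Over all 6 libraries Myc was not called (adjusted p = 0.0573). Of 25 immediate-early genes 9 fell and 5 rose in the 4-library stratum and 0 fell and 4 rose in the other (2 lower by an unadjusted p under 0.05 and 0 in DESeq2), with 11 tested differences. Fosl1, a subunit of AP-1, was at 12.0, 12.8 and 19.8 CPM with Oboxa1 and 24.1, 25.7 and 26.5 CPM with the empty vector, a change of -1.07 ± 0.089 and -0.29 ± 0.12, whereas Fos, another subunit, was at 99.2, 103 and 54.6 CPM with Oboxa1 and 32.4, 46.0 and 53.3 CPM with the empty vector and rose in both strata (1.03 ± 0.14 and 0.75 ± 0.21). Of 42 ribosome biogenesis genes, a process that Myc is known to drive, 18 fell in the 4-library stratum and 0 in the 2-library stratum (3 by an unadjusted p under 0.05 and 0 in DESeq2), with 6 tested differences. Ddx21, a nucleolar helicase, was at 196, 202 and 272 CPM with Oboxa1 and 266, 285 and 288 CPM with the empty vector, an effect of -0.52 ± 0.061 against 0.032 ± 0.085.

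Cholesterol synthesis rose in the 4-library stratum, 16 of 24 genes, and in the 2-library stratum 0 were called (2 higher and 2 lower by an unadjusted p under 0.05 and 0 in DESeq2), with 10 tested differences. Hmgcs1, an early synthase of the pathway, was at 239, 245 and 199 CPM with Oboxa1 and 176, 151 and 129 CPM with the empty vector. The groups did not overlap over all 6, and the effect was 0.79 ± 0.077 and 0.18 ± 0.11 in the 2 strata. Lss, lanosterol synthase, was at 72.7, 72.4 and 71.2 CPM with Oboxa1 and 69.7, 47.2 and 51.4 CPM with the empty vector. Control replicate 1 was near the Oboxa1 values and the other controls were below them, and the effects of 0.56 ± 0.07 and 0.031 ± 0.097 differed (adjusted p = 0.0177).

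Hox genes, which record the position of a cell along the body and limb axes, differed in level between the strata as well as in their response. Of 36, 22 rose and 0 fell in the 4-library stratum, 1 rose and 6 fell in the 2-library stratum, and 14 effects differed. Over all 6 libraries 0 were called (5 higher and 0 lower by an unadjusted p under 0.05 and 1 higher in DESeq2), and without control replicate 1 the count was 21 higher. Hoxc8, a gene of the trunk, was at 29.9, 24.9 and 32.5 CPM with Oboxa1 and 27.5, 11.4 and 11.4 CPM with the empty vector. Control replicate 1 was close to the Oboxa1 libraries and control replicates 2 and 3 were far below them, an effect of 1.27 ± 0.11 against 0.24 ± 0.14. Hoxd13, a gene of the distal limb and genital region, was at 149.5, 168 and 33.7 CPM with Oboxa1 and 53.2, 149 and 139 CPM with the empty vector. Both libraries of the 2-library stratum were low, and within it Oboxa1 was lower than the control (-0.66 ± 0.10), beside 0.14 ± 0.067 in the other stratum.

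**Figure D5:**
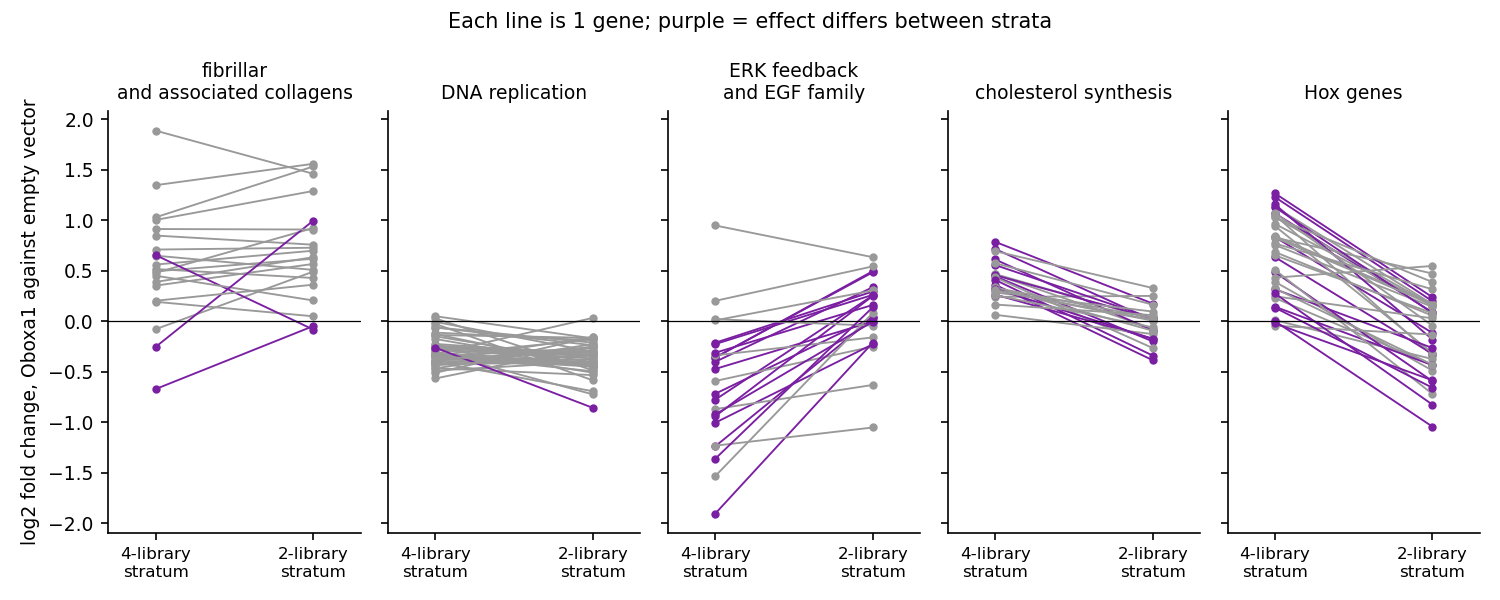
Each line joins the log2 fold changes of 1 gene in the 4-library and the 2-library stratum (y axis) for 5 gene lists, with purple lines for genes whose effect differs between the strata. Most collagen lines stay above 0 and most DNA replication lines below 0 in both strata, whereas 15 of 24 ERK and EGF genes, 10 of 24 cholesterol genes and 14 of 36 Hox genes change by a tested difference.

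Single genes with the smallest p for a difference between strata included Ddit4 and Sema7a. Ddit4, an inhibitor of mTOR signalling, was at 50.4, 45.2 and 53.1 CPM with Oboxa1 and 57.2, 21.4 and 19.7 CPM with the empty vector. Control replicate 1 was already at the level of the Oboxa1 libraries, and the effect was 1.22 ± 0.081 and -0.11 ± 0.11. Sema7a, a membrane-anchored semaphorin, was at 5.43, 5.21 and 36.4 CPM with Oboxa1 and 18.0, 11.3 and 10.9 CPM with the empty vector, lower in the 4-library stratum (-1.06 ± 0.13) and higher in the 2-library stratum (1.02 ± 0.14). Gfra1, the receptor of the neurotrophic factor GDNF, was at 122, 118 and 222 CPM with Oboxa1 and 159.6, 189.6 and 183 CPM with the empty vector, and was also called in opposite directions (-0.63 ± 0.062 and 0.48 ± 0.087).

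Other genes were called within strata and not over all 6, which is how the next ones were picked. They changed in the same direction in both strata, by similar or by unlike amounts, and their control levels differed between the strata. Why the test over all 6 did not call them was not tested. Postn, periostin, a matricellular protein, was at 1924, 1546 and 4631 CPM with Oboxa1 and 1981, 864 and 724 CPM with the empty vector. Oboxa1 replicate 3 was higher than its stratum's control and replicates 1 and 2 were higher than theirs, but control replicate 1 overlapped the Oboxa1 values, and the effect was 1.13 ± 0.11 and 1.23 ± 0.16 within the strata beside 1.18 ± 0.38 over all 6 (adjusted p = 0.059). Tnn, tenascin-N, was at 425, 345 and 126 CPM with Oboxa1 and 41.8, 165 and 142 CPM with the empty vector, the opposite order of strata, with 1.33 ± 0.14 and 1.59 ± 0.21. Fbxo32, an E3 ligase subunit of muscle atrophy, was at 50.2, 46.8 and 135 CPM with Oboxa1 and 67.7, 28.7 and 25.2 CPM with the empty vector (0.85 ± 0.076 and 1.00 ± 0.099). Among genes lower within strata, Slc14a1, a urea transporter, was at 59.1, 68.1 and 16.2 CPM with Oboxa1 and 31.0, 135 and 131 CPM with the empty vector (-1.07 ± 0.085 and -0.93 ± 0.14), and Fzd5, a Wnt receptor, at 60.3, 67.9 and 39.2 CPM with Oboxa1 and 52.2, 113 and 114 CPM with the empty vector (-0.82 ± 0.073 and -0.42 ± 0.11). The 5 genes called over all 6 and not within strata that differed most between the fits (Glce, Stk24, Bcl9l, L3mbtl2 and Fbxo5) had log2 fold changes of -0.33 to 0.33 over all 6, at the fold limit.

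Among regulators of early embryonic lineages, Pou5f1 and Cdx2, of the inner cell mass and the trophectoderm, had 0 reads in all 6 libraries, and Nanog was below 0.42 CPM in each, with a log2 fold change of 0.40 ± 0.47 (adjusted p = 0.623). Of 16 tested genes of pluripotency and early lineages, 0 were higher and 2 lower over all 6 (0 higher and 6 lower by an unadjusted p under 0.05, 0 and 3 in DESeq2), 5 were lower within strata, and in the 4-library stratum 1 was higher and 6 lower. Over all genes tested, 4.23% were higher and 3.28% lower over all 6. Within strata 5.74% were lower, and in the 4-library stratum 10.2% were higher and 7.05% lower. Tead4, a trophectoderm factor that fibroblasts also express, was at 8.91, 12.6 and 7.21 CPM with Oboxa1 and 12.1, 17.1 and 17.9 CPM with the empty vector, a change of -0.72 ± 0.20 (adjusted p = 0.033) with 1 Oboxa1 value inside the control range. Sox2 was at 5.37, 7.1 and 1.12 CPM with Oboxa1 and 2.02, 14.9 and 17.0 CPM with the empty vector. Its level followed the stratum first. The change was -1.36 ± 0.19 in the 4-library stratum and -0.85 ± 0.46 in the other. Within strata Sox2 was called lower (-1.19 ± 0.20, adjusted p = 0.000216), and over all 6 it was not called (adjusted p = 0.177). Gata3 was likewise called lower within strata and not over all 6. The 10 neural and Schwann cell markers, Sox2 among them, summed to 100.5 to 126 CPM with Oboxa1 and 151 to 212 CPM without. Most of this sum was Nes, at 74.6, 79.7 and 85.6 CPM with Oboxa1 and 123, 143 and 180 CPM with the empty vector. Of the 7 markers tested, 2 were called higher within strata (Tubb3 and Ngfr) and 3 lower (Nes, Sox2 and Erbb3). Their part in the Sox2 value was not tested. Of 8 tested genes of zygotic genome activation 0 were called (1 higher and 1 lower by an unadjusted p under 0.05 and 0 in DESeq2). Beside 4.23% higher and 3.28% lower over all genes tested, 0 of 8 says little about this list. Klf4 changed by -0.30 ± 0.051, past the p threshold but under the fold limit.

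Oboxa1 was set beside the other Obox plasmids only through libraries of the same profile, its replicates 1 and 2 against 3 libraries each of Oboxa4 and Oboxa7, so that no control library entered. Against Oboxa4, 2 genes were higher (0.0143%) and 3 lower (0.0214%) in Oboxa1, with 941 genes at an unadjusted p under 0.05. The 5 genes were Cdsn, Fbxo32, Nov, Gpnmb and Trabd2b, named because the count is small, and 0 genes passed when either Oboxa1 library was left out. Against Oboxa7, 97 genes were higher (0.693%) and 143 lower (1.02%). Of the ERK and EGF genes, 8 of 24 were lower in Oboxa1 than in Oboxa7, with Errfi1 at -0.90 ± 0.073 (adjusted p = 1.1e-06) and Hbegf at -0.66 ± 0.06 (adjusted p = 5.27e-06). Megf6 and Col8a2 were higher in Oboxa1 than in Oboxa7 by 0.58 ± 0.14 and 0.75 ± 0.18. Without Oboxa1 replicate 1 the counts against Oboxa7 were 12 and 31, without Oboxa1 replicate 2 they were 59 and 70, without Oboxa7 replicate 3 they were 31 and 91, and without Oboxa7 replicate 1 they were 60 and 122.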

How the data were processed

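RNA-seq of GFP-sorted fibroblasts was used. The authors aligned reads with STAR to GRCm38 (mm10), counted them per gene with featureCounts and deposited the raw counts, not normalized; the sources used here give no versions for either. The 15 libraries were fitted together in edgeR 4.0.16 (R 4.3.3, limma 3.58.1) with TMM scaling and the quasi-likelihood test on the counts as deposited, once with 5 group means (10 residual degrees of freedom) and once with a mean per group and stratum (8). Adjusted p-values are Benjamini-Hochberg over 14012 genes. RefSeq matched 96.4% of the 22063 names. Crxos and Obox genes were left out of rankings and counts, which leaves 14005. Calls needed an adjusted p under 0.05 and an absolute log2 fold change above 0.32. The effect within strata weighted the 4-library stratum 2 to 1. Scripts were tested on simulated counts.

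Named genes were the 15 changed most in each direction over all 6 libraries, with 1 sign in both strata, no overlap and a mean of at least 1 CPM; the 5 with the smallest p in each direction called only within strata; 5 called only over all 6; 5 with the smallest p between strata; up to 4 called members per gene list; and 8 embryonic regulators. Birc5, Cdsn, Col18a1, Col1a2, Ddx21, Dusp6, Gpnmb, Hoxc8, Hoxd13, Lyz2, Mmp3, Mrc1, Notch3, Ogn, Plk1, Prrx1, Spry2, Trabd2b, Vim and the marker genes Chrna1, Dcn, Fap, Lum, Myh1, Pdgfra, Pdgfrb, S100a4, Thy1, Tnnt3 and Twist1, were named after their values were seen. The markers Erbb3, Nes, Ngfr and Tubb3 were also named after their values were seen. The comparison, the strata, the gene lists and the rules were chosen with earlier results of these data known. Alternatives were DESeq2 1.42.0, other scalings, filters and fold rules, a replicate block, and leaving out each library; those for the comparisons with Oboxa4 and Oboxa7 were added after seeing the data.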

Additional observations from a re-analysis of the deposited data

Results flagged for a closer look

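For 26 of the genes named by the fixed rule the effect of Oboxa1 in the 4-library stratum, less that in the 2-library stratum, passed the test of the difference itself in the edgeR fit. On the log2 scale this difference was positive for Ppp1r3c (2.90), Ddit4 (1.32), Ahrr (1.04), Col4a6 (0.92), Cdkn1c (0.76), Hmgcs1 (0.61), Pmvk (0.71), Lss (0.53), Zfp36 (1.03), Igfbp2 (1.07), Cxcl12 (0.63) and Ephb3 (0.87). It was negative for Itga2 (-1.89), Areg (-1.69), Upp1 (-1.69), Rapgef4 (-1.77), Glce (-0.57), Errfi1 (-1.501), Sema7a (-2.08), Hbegf (-1.19), Gfra1 (-1.11), E2f8 (-0.53), Fosl1 (-0.79), Fst (-0.54), Cxcl10 (-0.51) and Myc (-1.26). The 2-library stratum has 1 library per group, and its Oboxa1 library had the least Obox6, so the share of each in these differences cannot be told apart.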

How the results depend on the processing

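Over all 6 libraries, counts in both directions stayed within 1.5 times under 2 other scalings, the DESeq2 Wald test, no filter, a stricter filter, the replicate block, and without Oboxa1 replicate 2 or control replicate 2. A fit to the 6 libraries alone gave 47 higher and 18 lower, no fold rule gave 855 lower, testing against the fold limit (glmTreat) gave 126 and 51, and a term for the strata gave 1184 and 749. Leaving out 1 library gave 283 to 1094 higher and 187 to 694 lower. The replicate number as a replicate block gave 518 higher and 413 lower. Deviations of same-numbered libraries from their group means correlated at -0.49, 0.44 and -0.46. Those of Oboxa1 replicate 3 and control replicate 1 correlated at 0.63. The strata enter these deviations, so whether a shared number means a shared origin was not tested. The study matched experiments by date, and the dates are not used here. Within strata, no fold rule gave 2059 and 2104, glmTreat 480 and 239, and the 2-library stratum alone 633 and 507. For the difference between strata, the 6 libraries alone gave 726 and 897. Against Oboxa4, leaving out 1 library gave 0 to 2 higher and 0 to 4 lower, and against Oboxa7 12 to 127 and 31 to 140. Sema7a over all 6 reversed to -1.33 without Oboxa1 replicate 3, in a leave-one-out range up to 0.64. In the 2-library stratum alone the average within strata reversed for Ddit4 (-0.11), Errfi1 (0.14), Sema7a (1.02), Hbegf (0.25), Gfra1 (0.48), Zfp36 (-0.0053), Cxcl12 (-0.045) and Myc (0.22); that stratum has 1 library per group, assumed to vary like the others. The cause of the other shifts was not tested. Genes near 1 CPM rest on few reads, which limits their precision.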

Other observations

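Of 36 genes of amino acid and unfolded protein stress 6 were higher and 1 lower over all 6 libraries, and of 24 p53 targets 4 were higher. Of 24 chemokines and cytokines 3 were higher and 3 lower, with 9 higher and 1 lower in the 2-library stratum, 5 and 5 in the 4-library stratum, and a tested difference for 10. Of 41 interferon-stimulated genes 1 was lower over all 6, while 11 were higher and 2 lower in the 4-library stratum. Of 30 genes of glycolysis and hypoxia 2 were higher and 1 lower, and of 27 nuclear receptors and coregulators 2 were higher. Over all genes tested, 4.23% were higher and 3.28% lower over all 6 libraries. In the 4-library stratum these shares were 10.2% and 7.05%, and in the 2-library stratum 4.52% and 3.62%. The effect differed between the strata for 606 of 14005 genes.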
